A study of Mus musculus with 2 samples.

Results

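The miR-17-92 cluster is a polycistronic microRNA locus: a single primary transcript carries several hairpins, each of which is cut out and processed into mature miRNAs. Its 6 hairpin genes, Mir17, Mir18, Mir19a, Mir20a, Mir19b-1 and Mir92-1, were taken by symbol from the 2202 miRNA genes in the deposited tables. They were read in 2 microRNA sequencing libraries, each from the heart of a male B6CASTF1/J mouse (the first-generation cross of C57BL/6J and CAST/EiJ) aged 4 days. The labels give no treatment and no second genotype, so the libraries are replicates 1 and 2 of a single group and no conditions could be compared. They number the animals separately but give them the same donor identifier, and if the samples are not from separate animals the spread between them is technical. Whole hearts were used, so the counts do not say which heart cells the reads came from, and fewer cells of a type cannot be told apart from less RNA per cell.

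The mature miRNAs of this cluster repress target mRNAs chosen mainly through the seed, bases 2 to 8 from the 5′ end. The locus is a transcriptional target of Myc and E2F factors, is known for promoting proliferation and survival, and is required for normal heart and lung development in mice. In cardiomyocytes it is known to favour proliferation, and miR-18 and miR-19 have been tied to the ageing and failing heart through repression of matrix genes. Related hairpins occur at a pair of paralogous clusters, miR-106a-363 on chromosome X and miR-106b-25 on chromosome 5. The latter has no hairpin of the miR-18 or miR-19 type.

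The 6 hairpins form 4 seed groups, and these sequences are shown because the levels below are ordered by them. All 6 members and all 9 genes of the paralogous clusters matched the RefSeq table of GRCm38.p6. Capitals mark the seed. The miR-17 seed is carried by the 5′ arm of Mir17 and Mir20a, the miR-18 seed by the 5′ arm of Mir18, the miR-19 seed by the 3′ arm of Mir19a and Mir19b-1, and the miR-92 seed by the 3′ arm of Mir92-1.
miR-17-5p: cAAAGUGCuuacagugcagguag
miR-20a-5p: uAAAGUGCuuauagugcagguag
miR-18a-5p: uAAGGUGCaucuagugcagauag
miR-19a-3p: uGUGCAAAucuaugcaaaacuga
miR-19b-3p: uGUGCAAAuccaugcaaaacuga
miR-92a-3p: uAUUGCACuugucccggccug

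Mature miR-17-5p and miR-20a-5p differ at 2 positions, C1U and C12U, counted from 1 at the 5′ end with the base of the first named miRNA first. miR-17-5p and miR-18a-5p differ at 6 positions, of which A4G lies in the seed. miR-19a-3p and miR-19b-3p differ only at U11C, outside the seed. The nearest sequences at the paralogous clusters are shown next, because a read that matches several places is not counted for any gene in these tables. miR-17-5p differs from miR-106a-5p only at U10A, and miR-20a-5p from miR-20b-5p at U1C and U10C. miR-17-5p differs from miR-93-5p at 4 positions, and miR-92a-3p differs from miR-25-3p at U1C, C14U and C18U.
miR-106a-5p: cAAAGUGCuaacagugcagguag
miR-20b-5p: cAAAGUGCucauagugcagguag
miR-93-5p: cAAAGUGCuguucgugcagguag
miR-25-3p: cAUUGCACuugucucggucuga

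Mature miR-19b-3p and miR-92a-3p each have 2 gene copies, with no difference between them: Mir19b-1 and Mir92-1 in this cluster, and Mir19b-2 and Mir92-2 on chromosome X. The hairpins of Mir92-1 (chr14:115044427-115044506, plus strand, GRCm38) and Mir92-2 (chrX:52741838-52741928, minus strand) are given with their longest shared run, 22 bases, in capitals. It holds the whole of the 21-base miR-92a-3p and 1 base before it.
Mir92-1: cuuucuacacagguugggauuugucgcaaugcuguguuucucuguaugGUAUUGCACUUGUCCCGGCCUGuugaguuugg
Mir92-2: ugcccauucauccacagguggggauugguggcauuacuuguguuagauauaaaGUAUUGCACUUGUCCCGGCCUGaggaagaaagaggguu

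For Mir19b-1 (chr14:115044305-115044391, plus strand) and Mir19b-2 (chrX:52741983-52742066, minus strand) the longest shared run is 25 bases and holds the whole of the 23-base miR-19b-3p. It is again given in capitals.
Mir19b-1: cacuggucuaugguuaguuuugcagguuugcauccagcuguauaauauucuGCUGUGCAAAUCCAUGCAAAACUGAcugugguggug
Mir19b-2: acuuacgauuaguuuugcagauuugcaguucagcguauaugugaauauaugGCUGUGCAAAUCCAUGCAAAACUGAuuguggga

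A search of the 2201 other annotated miRNA hairpins found miR-19b-3p whole in Mir19b-2 and miR-92a-3p whole in Mir92-2, and no other mature sequence of the cluster in any of them. With 1 mismatch allowed, miR-17-5p was found in Mir106a, miR-19a-3p in Mir19b-1 and Mir19b-2, and miR-19b-3p in Mir19a. The closest match of miR-18a-5p and of miR-20a-5p had 2 mismatches. The opposite arms of these hairpins stand apart: miR-92a-1-5p had at least 5 mismatches to every other hairpin and miR-19b-1-5p at least 6.

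All 6 hairpins lie on the plus strand of chromosome 14 within 836 bases (GRCm38), inside exon 2 of the annotated long noncoding host gene Mir17hg (115042879 to 115046727, 3849 bases). The gene identifiers and positions are ENSMUSG00000065508.1 for Mir17 (115043671 to 115043754), ENSMUSG00000065403.1 for Mir18 (115043851 to 115043946) and ENSMUSG00000065416.1 for Mir19a (115044000 to 115044081). Those of the others are ENSMUSG00000065442.1 for Mir20a (115044157 to 115044263), ENSMUSG00000076256.1 for Mir19b-1 and ENSMUSG00000076062.1 for Mir92-1, with the positions given above. Mir17 begins 792 bases after the annotated start of the host, followed by Mir18 at 972, Mir19a at 1121, Mir20a at 1278, Mir19b-1 at 1426 and Mir92-1 at 1548. The gaps between neighbouring hairpins shorten from 96 bases between Mir17 and Mir18 to 35 bases between Mir19b-1 and Mir92-1, with 75 bases between Mir19a and Mir20a against 53 between Mir18 and Mir19a. No other annotated miRNA gene lies within 10 kb on either strand.

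Sense counts, the reads on the gene's strand, came to 4196577 in replicate 1 and 3801738 in replicate 2, and levels are given as CPM, sense counts scaled to the same total in both libraries. Multi-mapped reads, which are in no gene's count, made up 38.1% and 42.3% of all reads in the tables. Of the heart and striated muscle markers, 9 of 9 had counts, with summed levels of 13128 and 8964 CPM in replicates 1 and 2. Most of this came from Mir499, Mir208b and Mir208a, at 1259.4 to 5794.5 CPM. The other markers of this list had 1.315 to 54.45 CPM, and Mir1a-1, Mir133a-1, Mir133a-2 and Mir133b had 5 to 29 counts. White blood cell markers summed to 2219 and 2140 CPM over 7 genes, Mir142b being at 0, and red blood cell markers to 493 and 400 CPM over 4 annotated genes, Mir451b being at 0. The endothelial miRNA Mir126a had 109199 and 49330 CPM, the largest difference in CPM between the libraries among all genes.

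Multi-mapped reads are left out of all counts here. The cluster as a whole was well represented in the counts, and nearly all of its counts came from 4 of the 6 hairpins. It had 46305 sense counts in replicate 1 and 49402 in replicate 2. These were 1.103% of the library (95% Wilson interval 1.093 to 1.113) and 1.30% (1.29 to 1.31), with a mean of 1.201% ± 0.139 (SD, n = 2). Intervals here and below cover counting error only, since reads of an amplified library are not independent molecules. The cluster held 57.5% and 61.6% of the summed counts of the 3 paralogous clusters, miR-106b-25 held 42.3% and 38.2%, and miR-106a-363 held 0.268% and 0.201%.

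Mir17, the first hairpin and source of miR-17-5p, had the highest level, with 25503 counts (6077 CPM) in replicate 1 and 31171 counts (8199 CPM) in replicate 2, a mean of 7138 ± 1500.5 CPM (SD, n = 2). It ranked 31 and 24 among the 2202 genes. Mir20a, which shares its seed, had 9350 counts (2228 CPM) and 11273 counts (2965 CPM), with a mean of 2597 ± 521 CPM, and ranked 54 and 46. Mir17 lay above Mir20a in both libraries, and their ranges did not overlap. Mir92-1, the last hairpin, had 8372 counts (1995 CPM) and 4702 counts (1237 CPM), with a mean of 1616 ± 536 CPM. It was below Mir20a in both libraries, but the SD ranges of these neighbours in the order overlap.

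Mir18, which yields miR-18a, had 3061 counts (729 CPM) and 2233 counts (587 CPM), with a mean of 658 ± 100 CPM. It was below Mir92-1 in both libraries. The miR-19 hairpins were close to the limit of detection. Mir19b-1 had 11 counts (2.62 CPM) and 16 counts (4.21 CPM), with a mean of 3.42 ± 1.12 CPM, and Mir19a had 8 counts (1.91 CPM) and 7 counts (1.84 CPM), with a mean of 1.87 ± 0.046 CPM. The limit that a count of 0 allows, 3 counts, is 0.715 and 0.789 CPM in replicates 1 and 2, so both lay above it in each library. The ratio of Mir19b-1 to Mir19a was 1.38 in replicate 1 (95% interval 0.504 to 3.94) and 2.29 in replicate 2 (0.890 to 6.57), and both intervals include equal counts.

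**Figure D1:**
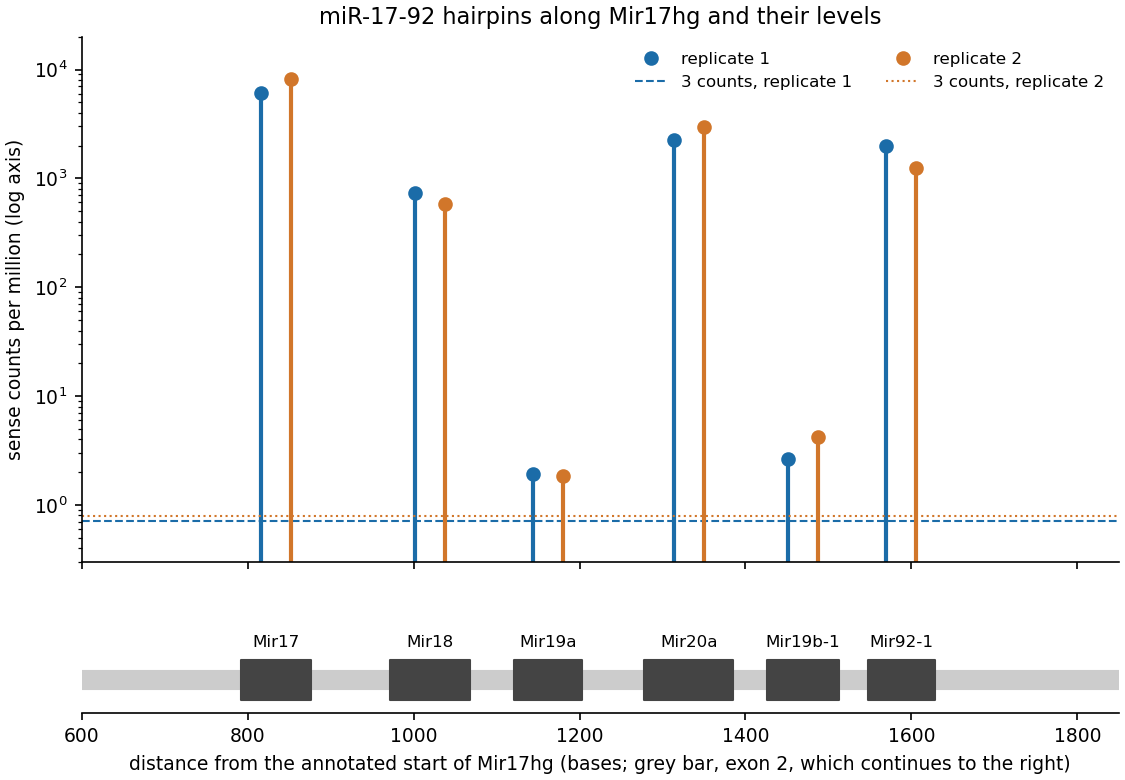
Levels of the 6 hairpins in CPM (log axis) beside the middle of each hairpin (replicate 1 drawn to the left, replicate 2 to the right), against the distance in bases from the annotated start of Mir17hg, with 1 point per library and the level of 3 counts as horizontal lines. Mir19a and Mir19b-1 stay under 5 CPM in both libraries, while the hairpins on either side of them lie between 587 and 2965 CPM.

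Hairpins that sit side by side in the same exon had very unequal counts. Mir19a lies 53 bases after Mir18 and 75 bases before Mir20a, and Mir17 had 3188 times the counts of Mir19a in replicate 1 (95% interval 1618 to 7385) and 4453 times in replicate 2 (2161 to 11077). Hairpin lengths run from 80 bases for Mir92-1 to 107 for Mir20a. Dividing each CPM by hairpin length left all 6 members in the same order, which lengths this alike could not have changed. The part of length in the counts was not tested. GC content of the hairpins runs from 43.7% in Mir19b-1 to 47.5% in Mir92-1. The mature miR-19a-3p is 34.8% GC and miR-19b-3p 39.1%, as is miR-20a-5p at 39.1%, while miR-92a-3p is 57.1%.

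Members that share mature sequence with another hairpin, whole or with 1 mismatch, had the counts below, which leave out multi-mapped reads. Mir92-1 encodes the same mature 3′ arm as Mir92-2 and had 8372 and 4702 counts, whereas Mir19b-1 shares its mature 3′ arm with Mir19b-2 and had 11 and 16. The mature sequences of Mir17 and Mir19a each match another hairpin at 1 mismatch, with 25503 and 8 counts in replicate 1. How many reads of each mature sequence went to the multi-mapped reads was not tested. The counts of Mir17, Mir19a, Mir19b-1 and Mir92-1 are therefore uncertain as levels of miR-17, miR-19a, miR-19b and miR-92a. A gene's count joins both arms of its hairpin, so a count of Mir92-1 may be of either arm. No member had a count on the opposite strand in either library, and its counts without regard to strand equalled its sense counts.

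The composition of the cluster differed between the libraries, mainly in Mir17 and Mir92-1. Mir17 held 55.1% of the cluster's counts (95% Wilson interval 54.6 to 55.5) in replicate 1, against 63.1% (62.7 to 63.5) in replicate 2. Mir20a held 20.2% (19.8 to 20.6) and 22.8% (22.5 to 23.2). Mir92-1 held 18.1% (17.7 to 18.4) and 9.52% (9.26 to 9.78), the widest change in share relative to its size. Mir18 held 6.61% (6.39 to 6.84) and 4.52% (4.34 to 4.71). Mir19b-1 and Mir19a stayed between 0.014% and 0.032%.

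**Figure D2:**
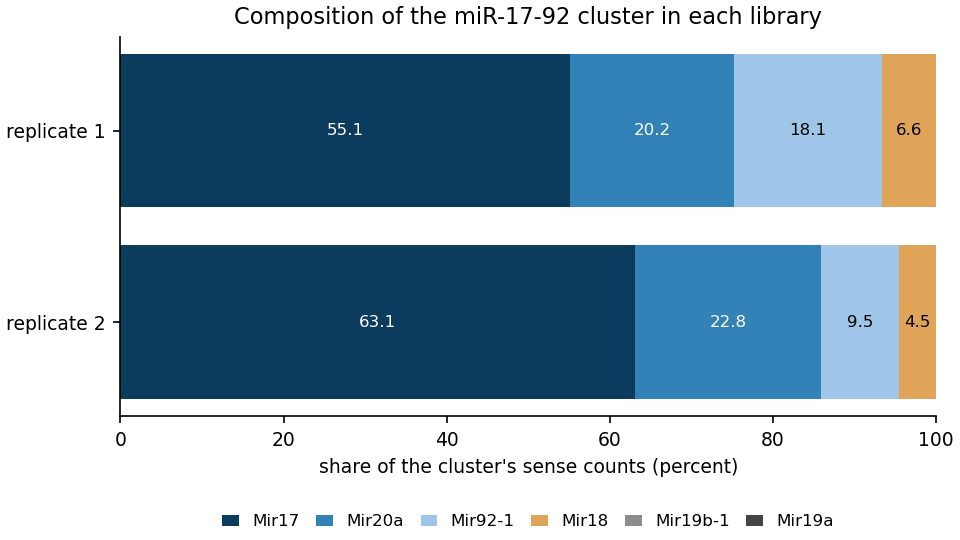
Share of each member in the cluster's sense counts (percent), with 1 bar per library. The bars of Mir17 and Mir20a are wider in replicate 2 and that of Mir92-1 is narrower, at 9.52% against 18.1%, while Mir19a and Mir19b-1 are too few to see.

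Ratios within a library do not depend on how the libraries are scaled. The ratio of Mir17 to Mir20a was 2.73 in replicate 1 (95% interval 2.66 to 2.79) and 2.77 in replicate 2 (2.71 to 2.83), so these members of the same seed kept their ratio within counting error. The ratio of Mir17 to Mir18 was 8.33 (8.03 to 8.65) and 13.96 (13.37 to 14.58), and that of Mir17 to Mir92-1 was 3.05 (2.97 to 3.12) and 6.63 (6.43 to 6.84). Neither pair of intervals overlaps. The ratio of Mir92-1 to Mir18 was 2.74 (2.62 to 2.85) and 2.11 (2.00 to 2.22), so these members also changed relative to each other. Over the libraries, the log2 ratio of Mir17 to Mir20a was 1.46 ± 0.01 (SD, n = 2) and that of Mir17 to Mir92-1 was 2.17 ± 0.79.

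Scaled by total counts, Mir17 and Mir20a were higher in replicate 2 and Mir18 and Mir92-1 were lower there, while Mir19a and Mir19b-1 did not pass the test. The counts of a gene and of all other genes in replicates 1 and 2 entered a Fisher's exact test (two-sided), with Benjamini-Hochberg adjustment over the 441 genes with at least 10 counts over both libraries, at a threshold of 0.05. This test compares 2 libraries, not conditions, and takes counting error as the only error. It called 4 of 6 members, beside 56.9% of all tested genes. Higher in replicate 2 were 2 members, beside 20.4% of all genes, and lower were 2, beside 36.5%. A call is thus common in these libraries.

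On the log2(CPM + 1) scale, as replicate 2 over replicate 1, Mir17 had a log2 ratio of 0.43 (adjusted p = 4.13e-278, Fisher's exact test) and Mir20a 0.41 (adjusted p = 1.09e-92, Fisher's exact test). Mir92-1 had -0.69 (adjusted p = 2.41e-156, Fisher's exact test) and Mir18 -0.31 (adjusted p = 2.05e-14, Fisher's exact test). Mir19b-1 had 0.52 (adjusted p = 0.34, Fisher's exact test) and Mir19a -0.03 (adjusted p = 1.0, Fisher's exact test), at depths that cannot resolve changes of this size. The median over the members was 0.19, beside -0.26 over all tested genes, of which the middle 90% lay between -1.47 and 0.92. The summed cluster had a log2 ratio of 0.24 (p = 7.85e-143, Fisher's exact test).

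Whether Mir18 was called depended on the scaling. TMM (trimmed mean of M-values) raised log2 ratios by 0.30 and DESeq2 size factors by 0.27 before the pseudocount, and by less for genes of low counts, as with Mir19a, which went from -0.03 to 0.17 with TMM. Mir18 was then at -0.01 (adjusted p = 0.91, Fisher's exact test) and -0.04 (adjusted p = 0.46, Fisher's exact test) and was no longer called. Mir17 was at 0.74 with TMM, Mir20a at 0.72 and Mir92-1 at -0.39, and all 3 were called under both scalings. With TMM 2 members were higher and 1 lower, beside 30.6% and 24.0% of all genes (54.6% in either direction). With DESeq2 size factors they were again 2 and 1, beside 29.5% and 25.2% (54.6% in either direction).

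**Figure D3:**
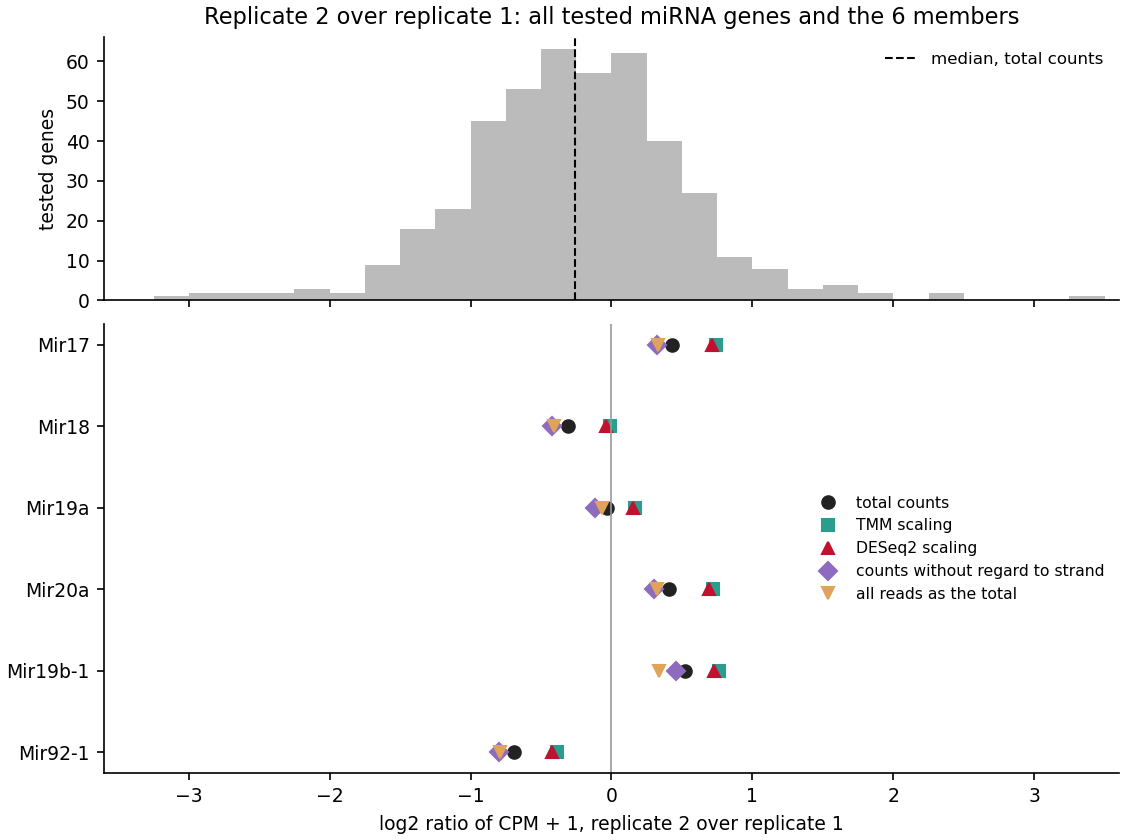
Above, the number of tested genes by log2 ratio of CPM + 1, replicate 2 over replicate 1, with their median of -0.26 as a dashed line; below, the log2 ratio of each member under 5 scalings or count columns (symbols). Mir17 and Mir20a stay above 0 and Mir92-1 below it under all 5 shown, while Mir18 moves from -0.31 to -0.01 with TMM.

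No member passed a test that adds the spread between the libraries to counting error. Over the 344 genes with at least 10 counts in each library, edgeR's common dispersion corresponded to a biological coefficient of variation of 0.379. edgeR's exact test with this spread called none of the members and 0.454% of all tested genes, which were 2 genes at an adjusted p under 0.05 and 23 at an unadjusted p under 0.05. Unadjusted p in the same test was 0.35 for Mir17, 0.37 for Mir20a, 0.33 for Mir19b-1, 0.63 for Mir92-1, 0.99 for Mir18 and 1.0 for Mir19a. The dispersion was estimated on the pair of libraries being compared, and a p above the threshold does not show that the members were equal.

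Genes of the same seed at other loci give the setting for each member. The miR-17 seed is found in 7 annotated genes, which together had 15842 CPM in replicate 1 and 19017 CPM in replicate 2. Mir17 and Mir20a supplied 52.4% (95% Wilson interval 52.0 to 52.8) and 58.7% (58.4 to 59.1) of their counts. Mir93 of the miR-106b-25 cluster had 5986 and 7427 CPM, and the ratio of Mir17 to Mir93 was 1.015 (0.998 to 1.033) and 1.104 (1.086 to 1.122). Mir106b, its neighbour, had 1535 and 399 CPM. Mir106a had 41 and 65 counts and Mir20b 22 and 36, so Mir17 had 622 and 480 times the counts of its nearest relative in sequence. Mir6383 had 0 counts.

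The miR-18 seed is carried by 1 other gene, Mir18b on chromosome X, with 1 count in each library. The cluster thus supplied nearly all counts of this seed (3061 of 3062 and 2233 of 2234). For the miR-19 seed, Mir19b-2 had 2 counts in each library, and all 3 genes together had 21 and 25 counts. These were 5.00 and 6.58 CPM, the lowest sums of the 4 seed groups in each library. The counts of the miR-19 genes were low at both loci, but a read that matches Mir19b-1 and Mir19b-2 alike is in neither count. How many such reads there were was not tested.

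The miR-92 seed is found in 7 annotated genes with 2713 and 1572 CPM in all. Mir92-1 supplied 73.5% (95% Wilson interval 72.7 to 74.3) and 78.7% (77.6 to 79.7) of their counts. Mir25 had 595 and 222 CPM, Mir32 53.4 and 71.8 CPM, Mir92b 33.6 and 26.8 CPM, Mir92-2 31.7 and 13.7 CPM, and Mir363 4.05 and 1.32 CPM. Mir367 had 0 counts. The ratio of Mir92-1 to Mir92-2, the hairpins with the same mature 3′ arm, was 63.0 (53.0 to 75.3) and 90.4 (68.8 to 121), and these intervals overlap. A read that matches Mir92-1 and Mir92-2 alike is in neither count, and a count may be of either arm. How many such reads there were was not tested. The shares and this ratio therefore describe counts of the genes and not levels of mature miR-92a.

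**Figure D4:**
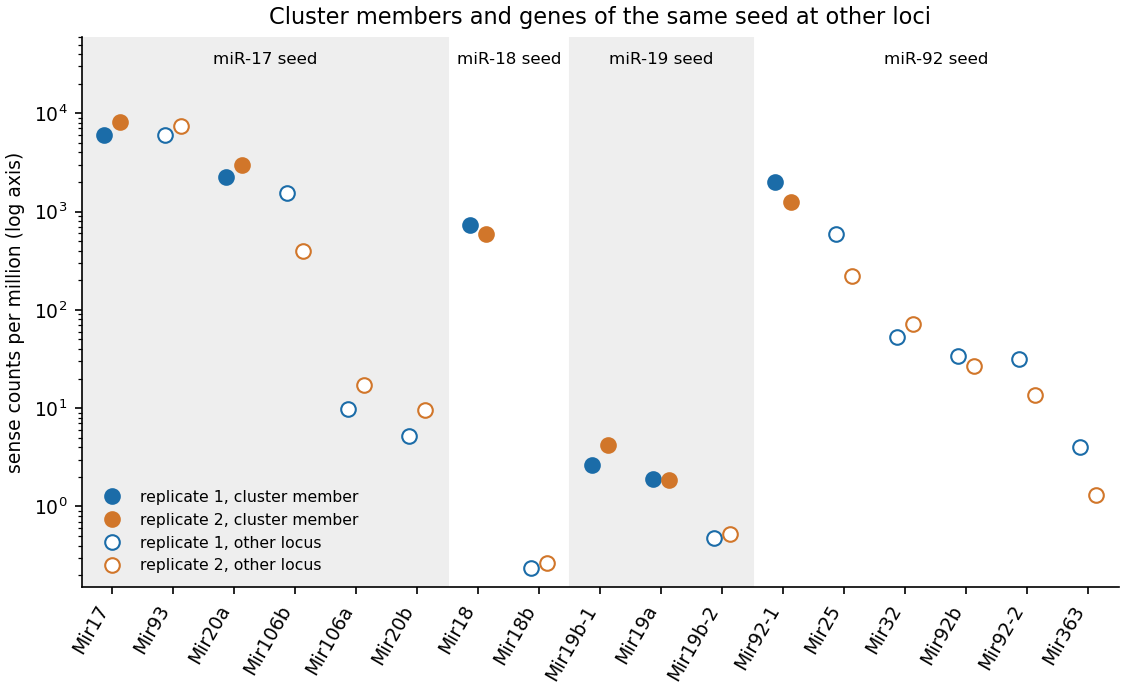
CPM (log axis) of every gene with counts that carries the seed of a member, grouped by seed, with 1 point per library; filled points are cluster members and open points are genes at other loci. Mir17 and Mir93 lie side by side at the top of the miR-17 seed, and Mir92-1 lies above all other genes of its seed in both libraries.

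Between the libraries, the genes of a seed did not all go the same way when scaled by total counts. Of the 5 other genes with the miR-17 seed, Mir93 (log2 ratio 0.31) and Mir106a (0.75) were higher in replicate 2 and Mir106b (-1.94) was lower, by Fisher's exact test adjusted over all genes, while Mir20b (0.75) and Mir6383 were not called. Of the 6 others with the miR-92 seed, Mir25 (-1.42) and Mir92-2 (-1.16) were lower, Mir32 (0.42) was higher, and Mir363 (-1.13), Mir92b (-0.31) and Mir367 were not called. Calls in either direction were common, since 20.4% of all tested genes were higher in replicate 2 and 36.5% were lower. Mir92-1 was lower in the same library as Mir92-2, the other copy of miR-92a. Mir17 and Mir20a were higher in the same library as Mir93, while Mir106b was lower there. Whether genes of a seed share a direction more often than other genes was not tested. None of these called genes changed direction with TMM or DESeq2 size factors. The sum of miR-106b-25 had a log2 ratio near 0 by total counts (-0.01), and was at 0.29 with TMM and 0.26 with DESeq2 size factors. That of miR-106a-363 was -0.28, 0.02 and -0.01, so it changed sign with TMM but not with DESeq2 size factors.

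Mir106b and Mir93 lie in the same cluster, and their ratio moved further than any ratio among the 4 abundant members of miR-17-92 given above. The ratio of Mir93 to Mir106b was 3.90 in replicate 1 (95% interval 3.79 to 4.01) and 18.6 in replicate 2 (17.7 to 19.6). Marker levels differed between the libraries as well: Mir126a had a log2 ratio of -1.15 and the summed heart and striated muscle markers -0.55, against -0.05 for white blood cell and -0.30 for red blood cell markers by total counts. With TMM these were -0.84 for both endothelial markers together, -0.25 for heart and striated muscle, 0.25 for white blood cell and 0.00 for red blood cell markers, so the white blood cell sum changed sign. The heart and striated muscle sum and the white blood cell sum each hold genes that went opposite ways by Fisher's exact test on total counts. Of 9 heart and striated muscle markers, 3 were lower in replicate 2, Mir208a, Mir208b and Mir499. Higher were 2, Mir1a-2 (0.70) and Mir133a-1 (1.25, from 11 and 29 counts), and 4 were not called. Of the white blood cell markers, Mir142 (0.63), Mir150 (0.41) and Mir223 (0.39) were higher and Mir155 (-0.24) and Mir146 (-0.31) lower. Over all tested genes 36.5% were lower and 20.4% higher, so such a mix is common in these libraries. The part of the markers in the differences of the members was not tested. With Mir126a left out of the total, an alternative chosen after seeing the data, the cluster's log2 ratio was 0.14 and 4 members were called, beside 58.2% of 440 tested genes.

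The miRNA genes with levels closest to each member, by distance in log2(CPM + 1) over both libraries, were as follows. Mir93 (distance 0.14) and Mir151 (0.30) were closest to Mir17, and Mir342 (0.14) and Mir361 (0.21) to Mir20a. Mir208a, the miRNA of an intron of the cardiac myosin gene Myh6, had 8774 and 4788 counts and was closest to Mir92-1 (0.073), followed by Mir542 (0.28). Mir146, a miRNA of immune signalling, had 3109 and 2270 counts and was closest to Mir18 (0.033), followed by Mir337 (0.11). Mir1945 (0.22) and Mir293 (0.25) were closest to Mir19a, and Gm26117 (0.12) and Mir3066 (0.24) to Mir19b-1. With 2 libraries, such a distance describes likeness in level and says little of a shared pattern.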

How the data were processed

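The 2 tables used, 1 per heart library, hold deposited counts. Per the file headers of the description files deposited by the authors, the assembly is mm10 and the annotation GENCODE M21. For the aligner, no name is given in the sources used here. The counts are raw, and the 4 summary lines at the top of each table (unmapped reads and others in no gene) were left out of totals. That the columns hold counts without regard to strand, on the gene's strand and on the opposite strand was read from the values.

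All 2202 IDs matched GENCODE M21. CPM, log2(CPM + 1) ratios, Wilson and Clopper-Pearson intervals and Fisher's exact tests were computed with Python 3.11.15, scipy 1.17.1, and scaling and dispersion with edgeR 4.0.16 and DESeq2 1.42.0. With 1 group of 2 libraries the quasi-likelihood test had no residual degrees of freedom and was not run. Fisher's test was tested on simulated data. Named genes are the 6 members, paralogs, genes of the same seed, the 2 nearest genes in level and the markers. Mature sequences were searched in annotated hairpins only; the genome sequence was not used here. Members and lists were chosen with earlier results of these data known.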

Additional observations from a re-analysis of the deposited data

How the results depend on the processing

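The cluster's share of 1.201% became 1.56% with counts taken without regard to strand and 0.507% with all reads as the total, which changes the denominator, and 1.30% with Mir126a left out of it. It ranged from 1.103% to 1.299% when each replicate was left out. The log2 ratio of the cluster sum stayed positive in all 10 alternatives, from 0.12 to 0.55. Mir17 (0.32 to 0.74) and Mir20a (0.30 to 0.72) stayed above 0 and Mir92-1 (-0.80 to -0.38) below it, all called by Fisher's exact test in each. The alternative pseudocount of 10 CPM does not enter this test, so with it every member kept the call of the main setting. Mir18 ranged from -0.42 to 0.00. Its 0.00, with DESeq2 size factors from the genes with 10 or more counts over both libraries, was no longer below 0 before rounding. It lost its call in 4 of 10. Mir19a turned positive with TMM (0.17) and DESeq2 (0.15), and with gene sets chosen after seeing the data (0.13, 0.17, 0.06 and 0.11), and was not called in any. The number of members called was 4 in 6 and 3 in 4 of the other settings of Fisher's test, and 0 with edgeR's exact test, which adds the spread between the libraries and called 0.454% of all genes. Fisher's test called 54.4% to 58.5% of all genes in these settings, and 32.0% of 744 with no count minimum. Mir19a had 8 and 7 counts and Mir19b-1 11 and 16, so depth limits their values, beside the multi-mapped reads.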
